A study of Mus musculus with 16 samples.

Results

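Camp, Ngp, Lcn2, Il1r2 and C5ar1 are 5 genes of maturing and mature neutrophils, described here in 16 RNA sequencing libraries of mouse bone marrow cells enriched for stem and progenitor cells. They were taken by name from the deposited expression table, and each matched 1 Ensembl gene, giving 5 of the 6288 genes in it. All were lower in Tet2-deficient than in WT libraries, in physioxia and in air, where 33.6% (physioxia) and 37.4% (air) of all tested genes were called lower. For each gene the 4 Tet2-deficient libraries lay below all 4 WT libraries, a separation shown by 28.0% of tested genes in physioxia and 35.5% in air. Between oxygen levels only Camp in WT cells passed the test, and that call was lost when most of the WT libraries were left out singly.

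The libraries came from C57Bl/6J mice aged 3 to 4 months, both sexes, that were Tet2-deficient (Tet2-/-) or WT. Marrow of every group was harvested in a chamber at 3% oxygen and enriched by kits for Lin- cKit+ Sca1+ (LSK) cells. The physioxia groups stayed at 3% oxygen, and the air groups spent 6 hours in ambient air, about 21% oxygen, before RNA extraction. There were 4 replicates in each of the 4 groups: Tet2-deficient in physioxia, WT in physioxia, Tet2-deficient in air and WT in air. The labels give the cell type as CD45 positive cells, call the physioxia samples hypoxia in their titles, and do not say which animals a replicate held. The labels name no Cre or tissue-specific promoter for the Tet2 deletion, so it is not known to be limited to blood cells.

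Neutrophils ripen in the marrow from promyelocytes through myelocytes to segmented cells, and make their granule proteins in waves. Primary granule proteases come first, specific granule proteins such as cathelicidin and lipocalin follow under the factor C/EBP epsilon, and receptors for inflammatory signals come late. Mature neutrophils lack Kit and Sca1, so an LSK enrichment is meant to leave them out. Tet2 encodes an oxygen-dependent enzyme that oxidizes 5-methylcytosine in DNA.

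The authors' values are read counts divided by 1 size factor per library, called normalized counts below. Libraries held 7.77 to 15.7 M reads in the table. Tests used limma on log2(normalized count + 1) over 6110 genes, with Benjamini-Hochberg adjustment and a threshold of 0.05. Log2 differences are on that scale, which understates the change of low genes. Nothing in the labels ties a replicate to its own animal, so p-values measure only the spread between libraries, which may be technical in part. Tet2 itself averaged 482 ± 35.9 in Tet2-deficient and 731 ± 97.4 normalized counts in WT libraries in physioxia, and 554 ± 54.1 in Tet2-deficient and 855 ± 157 in WT libraries in air (SD, n = 4 each). It was lower in physioxia (limma adjusted p = 0.00267) and in air (0.00223) but still detected, and the files do not say which part of the gene the allele lacks. Of 16 stem and progenitor markers 8 were measured, none of them at 0 in a whole group. Kit averaged 6490 in Tet2-deficient and 3234 normalized counts in WT libraries in physioxia, while Ly6a (Sca1) and Ptprc (CD45) are not analysed here.

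**Figure D1:**
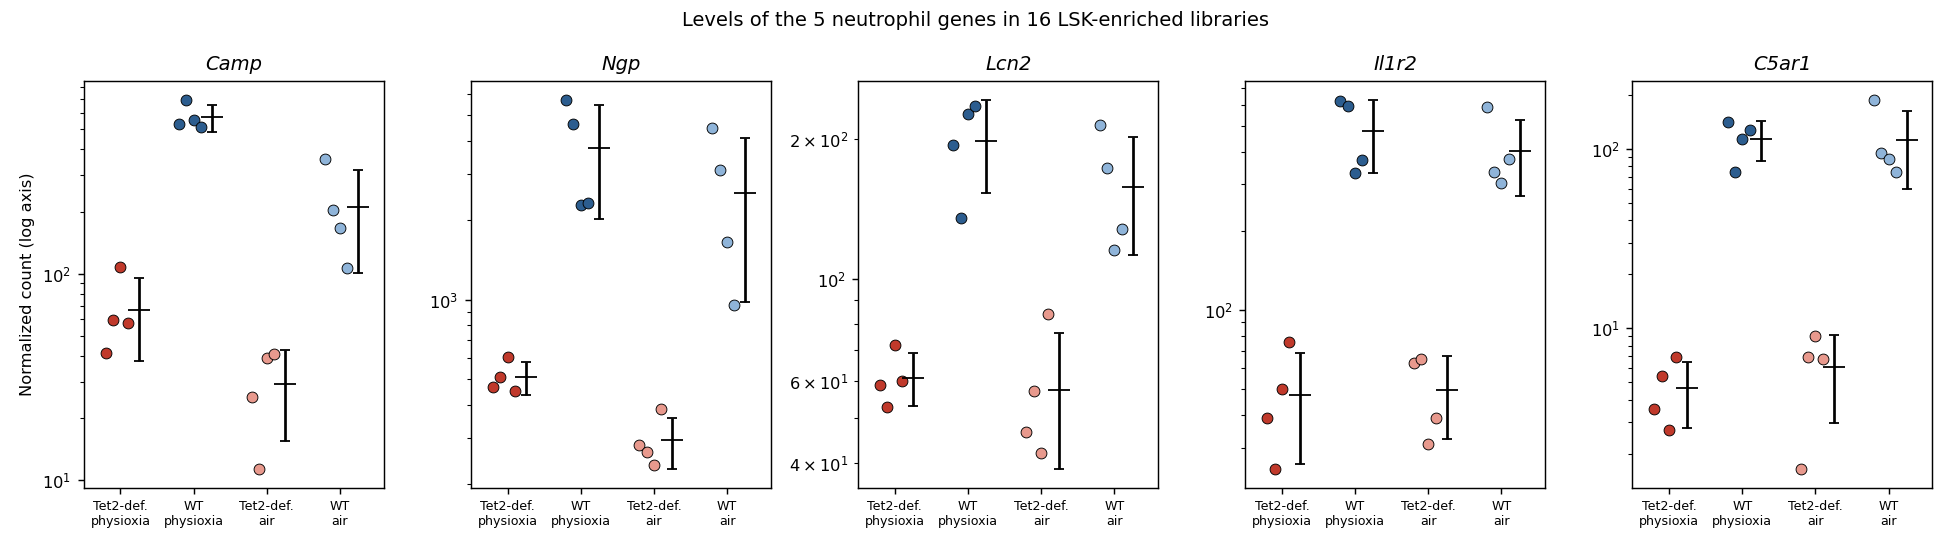
Normalized count of each gene (log axis, a separate scale per gene) in the 4 libraries of each group, as points in replicate order, with the mean ± SD beside them. In every panel the Tet2-deficient points lie below the WT points of the same oxygen level, and C5ar1 has means of 4.64 and 6.09 in Tet2-deficient libraries in physioxia and in air.

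The granule genes are described first. Camp (ENSMUSG00000038357, chromosome 9, 109847379 to 109849617, minus strand, GRCm38) encodes the cathelicidin CRAMP, an antimicrobial peptide stored in specific granules. In physioxia Camp had 41.3, 59.4, 107 and 57.6 normalized counts in Tet2-deficient libraries, against 529, 698, 554 and 512 in WT libraries. In air it had 25.4, 11.3, 39.03 and 40.6 in Tet2-deficient libraries, against 360.5, 204, 166 and 107 in WT libraries. The genotypes did not overlap at either oxygen level. Across oxygen levels they did, with 107.1 in the lowest WT air library and 107.4 in the highest Tet2-deficient physioxia library. The log2 difference, Tet2-deficient minus WT, was −3.17 ± 0.40 in physioxia (SE, limma adjusted p = 1.46e-05) and −2.82 ± 0.40 in air (limma adjusted p = 4.26e-05).

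Ngp (ENSMUSG00000032484, chromosome 9, 110419747 to 110423012, plus strand) encodes neutrophilic granule protein, a cystatin-related protein of myeloid granules. In physioxia Ngp had 465, 509.9, 606 and 449 normalized counts in Tet2-deficient libraries, against 5727, 4642, 2279 and 2320.0 in WT libraries. In air it had 282, 266, 237 and 386 in Tet2-deficient libraries, against 4466, 3100.2, 1655 and 954 in WT libraries. The Tet2-deficient libraries lay close together, while the highest WT air library held 4.68 times the Ngp of the lowest. The difference was −2.77 ± 0.39 log2 in physioxia (limma adjusted p = 3.97e-05) and −2.91 ± 0.39 in air (limma adjusted p = 2.48e-05).

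Lcn2 (ENSMUSG00000026822, chromosome 2, 32384633 to 32388252, minus strand) encodes lipocalin 2, a granule protein that binds bacterial siderophores and so withholds iron. In physioxia Lcn2 had 59.1, 52.9, 72.0 and 60.2 normalized counts in Tet2-deficient libraries, against 195, 136, 227 and 236 in WT libraries. In air it had 46.6, 57.3, 42.03 and 83.8 in Tet2-deficient libraries, against 214, 173, 116 and 128 in WT libraries. The groups did not overlap, with a narrower gap than for the other genes. The difference was −1.66 ± 0.26 log2 in physioxia (limma adjusted p = 8.9e-05) and −1.45 ± 0.26 in air (limma adjusted p = 0.000268).

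Of the receptors, Il1r2 (ENSMUSG00000026073, chromosome 1, 40074079 to 40125231, plus strand) encodes the decoy receptor that binds interleukin 1 without passing on its signal. In physioxia Il1r2 had 38.98, 24.8, 50.3 and 75.7 normalized counts in Tet2-deficient libraries, against 624, 595, 333 and 370.4 in WT libraries. In air it had 63.0, 65.1, 31.0 and 38.9 in Tet2-deficient libraries, against 588, 335, 303 and 376 in WT libraries. The lowest WT library exceeded the highest Tet2-deficient library several times over in both settings. The difference was −3.37 ± 0.34 log2 in physioxia (limma adjusted p = 1.49e-06) and −3.01 ± 0.34 in air (limma adjusted p = 4.72e-06).

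C5ar1 (ENSMUSG00000049130, chromosome 7, 16246743 to 16259540, minus strand) encodes the G protein-coupled receptor through which complement fragment C5a attracts and activates neutrophils. In physioxia C5ar1 had 3.54, 5.40, 2.72 and 6.88 normalized counts in Tet2-deficient libraries, against 140.4, 74.7, 113 and 127 in WT libraries. In air it had 1.64, 6.95, 9.01 and 6.77 in Tet2-deficient libraries, against 188, 94.6, 88.1 and 74.6 in WT libraries. It was near its detection limit without Tet2, with 18 reads over the 4 Tet2-deficient libraries in physioxia and 27 in air, against 465 and 448 reads over the WT libraries. Scaled for library size, the summed reads were 23.0 times higher in WT in physioxia (95% interval 14.4 to 39.1) and 19.0 times higher in WT in air (12.8 to 29.1). These intervals cover counting error only. The fitted difference was −4.37 ± 0.42 log2 in physioxia (limma adjusted p = 8.47e-07) and −4.05 ± 0.42 in air (limma adjusted p = 1.94e-06). A pseudocount of 10 shrank it to −3.06 in physioxia and −2.86 in air, still past the threshold.

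Camp, Ngp, Lcn2 and Il1r2 reached the minimum of 10 normalized counts in all 16 libraries. C5ar1 reached it in 8 WT libraries and in 0 Tet2-deficient ones, so it could be tested only because WT cells expressed it, and no count over the 5 genes is offered as support. Lower calls were common in the table, as the shares above show. From the most negative difference upwards, C5ar1 ranked 35, Il1r2 76, Camp 88, Ngp 116 and Lcn2 345 of 6110 tested genes in physioxia. In air C5ar1 ranked 44, Il1r2 91, Ngp 97, Camp 108 and Lcn2 459. All 5 kept a limma adjusted p under 0.05 in physioxia and in air when each of the 8 libraries compared was left out in turn. They also did so when every annotated gene outside the table was counted as unchanged, with limma adjusted p from 7.66e-06 to 0.00242. In these bulk samples, fewer cells of a type and less RNA per cell cannot be told apart.

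**Figure D2:**
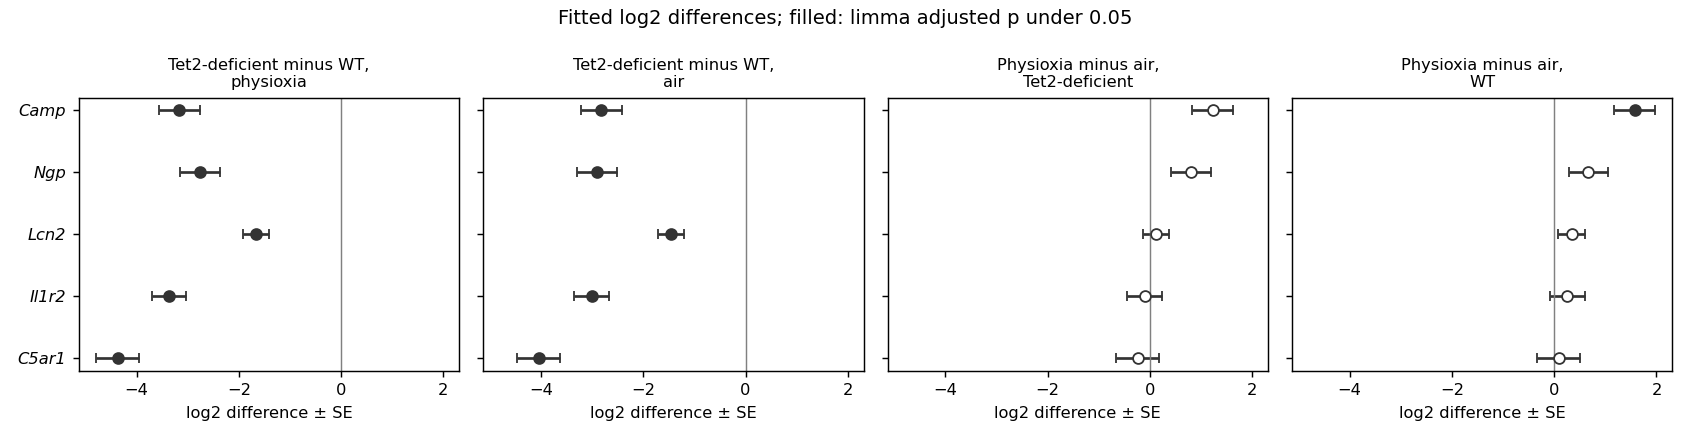
Fitted log2 difference ± SE of each gene in 4 comparisons, with filled points for a limma adjusted p under 0.05. All 5 genes lie left of 0 in both genotype comparisons, and of the oxygen comparisons only Camp in WT is filled, at 1.57 ± 0.40.

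Levels of different genes were compared per kilobase of merged exon. Ngp was highest and C5ar1 lowest in all 16 libraries. In physioxia the mean normalized counts per kilobase in Tet2-deficient libraries were 415 for Ngp, 87.6 for Camp, 24.9 for Il1r2, 23.3 for Lcn2 and 1.80 for C5ar1. In WT libraries in physioxia they were 3062 for Ngp, 756 for Camp, 252 for Il1r2, 75.6 for Lcn2 and 44.3 for C5ar1. The order Ngp, Camp, Il1r2, Lcn2, C5ar1 held in 10 libraries, 3 of them Tet2-deficient and 7 WT. In 4 libraries, all Tet2-deficient, Lcn2 stood above Il1r2, and the 2 genes' Tet2-deficient means differed by less than their spread. No WT library had Lcn2 above Il1r2.

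Ratios between granule genes within a library show how unequal their differences were. Ngp reads per Lcn2 read had a median of 8.15 in Tet2-deficient libraries (7.46 to 9.63) and 19.7 in WT libraries (9.81 to 34.2) in physioxia. In air the medians were 5.14 (4.61 to 6.04) in Tet2-deficient and 16.1 (7.44 to 20.8) in WT libraries. The genotypes did not overlap in either setting. Ngp reads per Camp read did overlap, with medians of 8.19 in Tet2-deficient and 5.59 in WT libraries in physioxia, and of 10.3 in Tet2-deficient and 11.2 in WT libraries in air.

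The oxygen comparison set cells kept at 3% oxygen after harvest against cells held for 6 hours in air. Camp was higher in physioxia than in air in WT cells, by 1.57 ± 0.40 log2 (limma adjusted p = 0.0305), with no overlap between 512 to 698 normalized counts in physioxia and 107 to 360.5 in air, a separation shown by 7.82% of tested genes. Of all tested genes, 4.91% were called higher in this comparison and 5.76% in either direction, so 1 call among 5 genes says little about the group. The Camp call rested on the full set of libraries. Leaving out each of the 8 WT libraries in turn, it was kept in 2 cases and lost in 6, with differences from 1.30 to 1.88 log2 and limma adjusted p from 0.0312 to 0.109. It was kept only without WT physioxia replicate 4 or WT air replicate 1. Without physioxia replicates 1, 2 or 3 the adjusted p was 0.0719, 0.0930 and 0.0640, and without air replicates 2, 3 or 4 it was 0.0686, 0.0662 and 0.109. It was lost as well when genes outside the table were counted as unchanged (limma adjusted p = 0.276).

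In Tet2-deficient cells Camp was 1.23 ± 0.40 log2 above its air level in physioxia (limma adjusted p = 0.904, unadjusted p = 0.00747), and its 2 groups, 41.3 to 107 in physioxia and 11.3 to 40.6 in air, did not overlap, as for 2.32% of tested genes. limma called 0 of the 6110 genes (0.0%) in this comparison, 280 had an unadjusted p under 0.05, edgeR called 0 (adjusted p for Camp 1.0), and DESeq2 called 8 genes, of which Camp was not one (adjusted p = 0.433). Ngp averaged 508 ± 70.6 in physioxia and 293 ± 64.9 normalized counts in air in Tet2-deficient cells (SD, n = 4 each), again without overlap, at 0.81 ± 0.39 log2 (limma adjusted p = 1.0). In WT cells its values overlapped, at 3742 ± 1724 in physioxia and 2544 ± 1562 in air, and the difference was 0.67 ± 0.39 (limma adjusted p = 0.362).

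The replicate numbers paired the libraries in WT cells and not in Tet2-deficient cells. Within the WT pairs, physioxia minus air, Ngp differed by 0.36 to 1.28 log2 and was higher in physioxia in 4 of 4 pairs, although its groups overlapped. Camp differed by 0.55 to 2.25 log2 within these pairs, a direction already fixed by the separation of its groups. The replicate block took same-numbered libraries as pairs in both genotypes, although the Tet2-deficient numbers did not pair. With that block, Camp in WT had a limma adjusted p of 0.0189 and Ngp 0.0650.

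**Figure D3:**
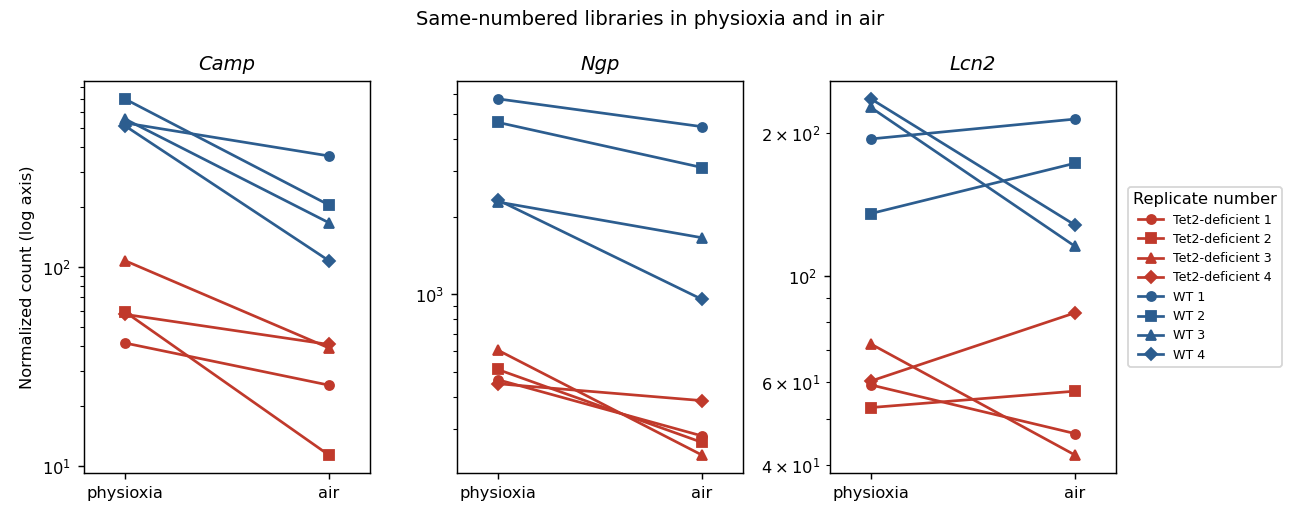
Normalized counts (log axis, a separate scale per gene) of same-numbered libraries in physioxia and in air, joined by lines, with a marker per replicate number. The lines of Camp and of Ngp run downward to air, which the separation of the groups fixes for Camp and for Ngp in Tet2-deficient cells, and those of Lcn2 run both ways, upward in 2 of 4 libraries of each genotype.

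Lcn2, Il1r2 and C5ar1 showed no difference with oxygen that passed the test. In Tet2-deficient cells, physioxia minus air, Lcn2 differed by 0.13 ± 0.26 log2, Il1r2 by −0.10 ± 0.34 and C5ar1 by −0.23 ± 0.42, each with a limma adjusted p of 1.0. In WT cells Lcn2 differed by 0.34 ± 0.26 (limma adjusted p = 0.504), Il1r2 by 0.26 ± 0.34 (0.727) and C5ar1 by 0.09 ± 0.42 (0.937). The genotype differences in physioxia and in air come from separate libraries, and their difference was tested as an interaction. It lay between −0.36 and 0.14 log2 over the 5 genes, with SEs of 0.36 to 0.59 (limma adjusted p from 0.808 to 0.949). limma called 0 of all genes (0.0%) for it, 546 had an unadjusted p under 0.05, edgeR called 0 and DESeq2 called 11, so an interaction within these errors was not detectable.

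The genes' neighbours in the neutrophil programme were taken from lists chosen with earlier results of these data known. A list gene counts as measured if it is in the deposited table. There 99.6% of genes had an unadjusted p under 0.05 in at least 1 of 4 pairwise DESeq2 comparisons. Shares of measured list genes called may therefore be raised, and listed genes outside the table are not known to be unchanged. Of 23 other specific and gelatinase granule genes 15 were measured, and 15 were lower and 0 higher in Tet2-deficient cells in physioxia and again in air, with 9 lower in air without WT air replicates 1 and 2. Of all tested genes, 33.6% were called lower and 35.9% higher in physioxia, and 37.4% lower and 42.1% higher in air. The list's median log2 difference was −1.30 in physioxia and −1.20 in air, beside medians over all tested genes of 0.06 in physioxia and 0.24 in air. Ltf, which encodes the iron-binding lactoferrin, averaged 66.3 in Tet2-deficient and 398 normalized counts in WT libraries in physioxia (−2.51 ± 0.43 log2, limma adjusted p = 0.000202). Fcnb, a ficolin that binds microbial sugars, averaged 98.5 in Tet2-deficient and 1327 in WT libraries in physioxia (−3.80 ± 0.50, limma adjusted p = 1.97e-05). Of 30 genes listed for mature neutrophils 18 were tested, with 15 lower in physioxia, 16 lower in air and 0 higher in either. Neither this list nor the granule list is limited to genes of neutrophils, and Hdc is also in the basophil list. S100a9, a subunit of calprotectin, was not called, at −1.17 ± 0.57 in physioxia (limma adjusted p = 0.0790) and −0.997 ± 0.57 in air (0.113).

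Primary granule genes, made earliest in the lineage, were measured for 7 of 12, with 7 lower in physioxia and 5 lower in air. Their medians were −0.48 in physioxia and −0.50 in air, smaller than the difference of any of the 5 genes. Elane, neutrophil elastase, differed by −0.49 ± 0.16 log2 in physioxia (limma adjusted p = 0.0126). The count in this list depended on scaling, with 1 called in physioxia and 3 in air after quantile normalization. It was 4 in physioxia without Tet2-deficient physioxia replicate 2, and 2 in air without WT air replicates 1 and 2 or without Tet2-deficient air replicates 3 and 4. It was 1 in physioxia and 1 in air with genes outside the table counted as unchanged. Of 16 transcription factors of granulocyte development 10 were measured, with 4 lower and 1 higher in physioxia, and 3 lower and 3 higher in air (2 lower and 1 higher in physioxia with genes outside the table counted as unchanged). The lower counts of this list are near the shares of all tested genes called lower, 33.6% in physioxia and 37.4% in air. Spi1, which encodes PU.1, was lower in both, at −0.70 ± 0.12 in physioxia (limma adjusted p = 0.000159) and −0.66 ± 0.12 in air (0.000249). Cebpe, which encodes C/EBP epsilon, was lower in physioxia (−0.89 ± 0.26, limma adjusted p = 0.00736) and was not called in air (−0.27 ± 0.26, 0.326).

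Around the receptors, 12 of 22 interleukin 1 ligands, receptors and adaptors were measured. Of these 9 were lower and 1 higher in physioxia, and 7 lower and 2 higher in air (4 lower and 1 higher without Tet2-deficient air replicates 3 and 4). With genes outside the table counted as unchanged, 5 were lower in physioxia and 3 in air, and 0 higher. Il1r1, the signalling counterpart of Il1r2, averaged 161 in Tet2-deficient and 257 normalized counts in WT libraries in physioxia (−0.61 ± 0.25 log2, limma adjusted p = 0.0427). Complement components and receptors were measured for 7 of 23, with 3 lower and 2 higher in physioxia and 1 lower and 3 higher in air (1 lower and 1 higher in physioxia with genes outside the table counted as unchanged). C5ar2, a second C5a receptor that does not couple to G proteins, had 14.7, 24.3, 83.1 and 36.4 normalized counts in Tet2-deficient libraries in air, against 7.69, 7.04, 5.51 and 5.74 in WT libraries. Its groups did not overlap in air, in the opposite direction to C5ar1 and as for 35.2% of tested genes (2.17 ± 0.56, limma adjusted p = 0.00374), while in physioxia it was not called (0.26 ± 0.56, 0.693). C3ar1, the C3a receptor, was lower in physioxia (−1.90 ± 0.72, limma adjusted p = 0.0272) and was not called in air (−0.33 ± 0.72, 0.659). Of 15 siderophore and iron genes 10 were measured, with 5 lower and 4 higher in physioxia and 5 lower and 5 higher in air. In air 1 was lower and 4 higher without WT air replicate 1, and 2 lower and 4 higher without WT air replicate 2. With genes outside the table counted as unchanged, 1 was lower and 4 higher in air. Over all tested genes 33.6% were called lower and 35.9% higher in physioxia, and 37.4% lower and 42.1% higher in air. The complement and iron counts say little beside these shares. Ltf, Slc11a1 and Hp, among the lower iron genes, were already counted in the granule list, as was Cfp of the complement list.

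**Figure D4:**
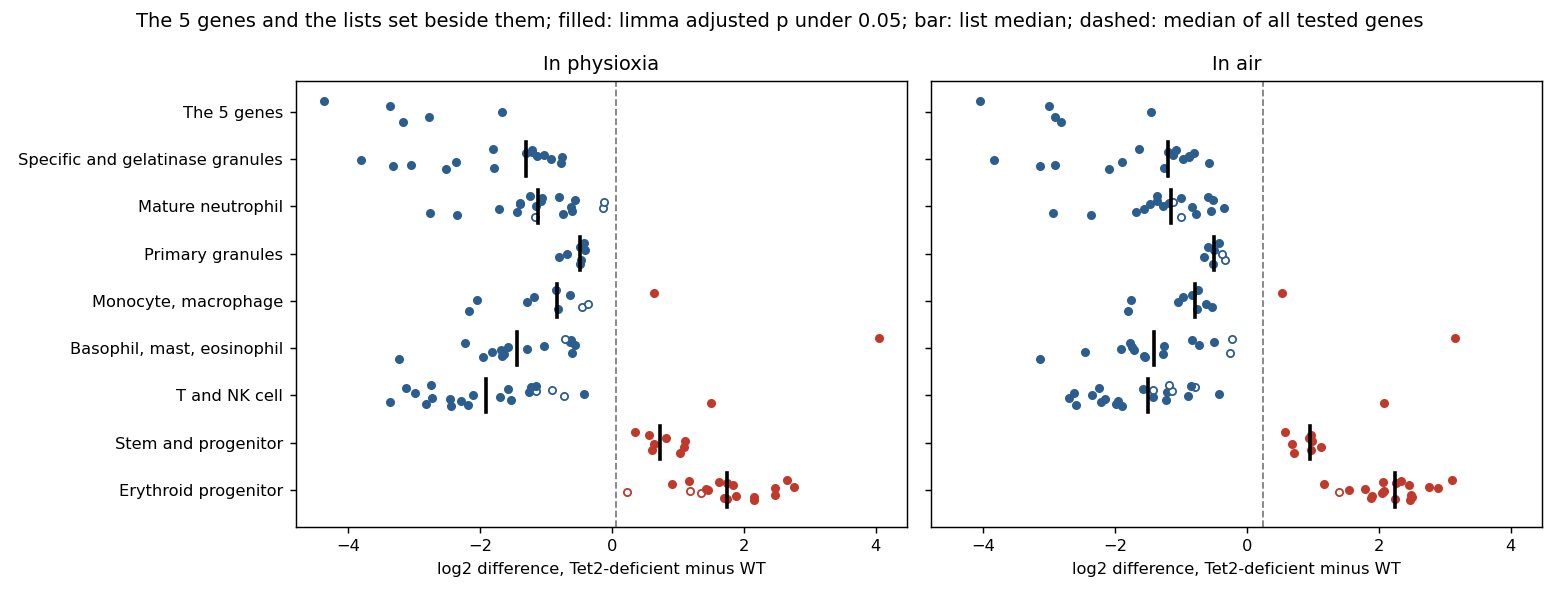
Log2 difference, Tet2-deficient minus WT, of each tested gene of the 5 genes and 8 lists, in physioxia and in air. Points are filled for a limma adjusted p under 0.05, bars mark list medians (none is drawn for the 5 genes), and the dashed line is the median of all tested genes, 0.06 in physioxia and 0.24 in air. The granule, neutrophil, monocyte, basophil and T cell lists have medians below that line, and the stem and erythroid lists above it.

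Markers of several other cell types were also mostly lower in Tet2-deficient cells, while erythroid and stem markers were mostly higher. Beside the counts below stand 33.6% lower and 35.9% higher calls over all tested genes in physioxia, and 37.4% lower and 42.1% higher in air. Of 18 monocyte and macrophage markers 10 were measured, with 7 lower and 1 higher in physioxia and 9 lower and 1 higher in air. Their summed level was 20468 to 24441 in Tet2-deficient and 32085 to 50638 normalized counts in WT libraries in physioxia. T and NK cell markers were lower for 18 of 22 measured in physioxia and 17 in air (8 without Tet2-deficient air replicates 3 and 4, 5 without WT air replicates 1 and 2, and 7 with genes outside the table counted as unchanged). In that list 1 marker was higher in both settings, Cd4, a co-receptor of helper T cells, by 1.51 log2 in physioxia (limma adjusted p = 0.00184) and 2.08 in air (0.000164). Basophil, mast cell and eosinophil markers were lower for 14 of 16 in physioxia and 13 of 16 in air. Here too 1 was higher, Tpsab1, a mast cell tryptase, by 4.06 log2 in physioxia (limma adjusted p = 0.000896) and 3.16 in air (0.00447). B cell markers were lower for 2 of 2 measured in physioxia and 1 of 2 in air (2 without WT air replicate 3). Erythroid progenitor markers went the other way, with 16 of 19 higher in physioxia and 18 of 19 in air, and sums in physioxia of 131711 to 356740 in Tet2-deficient and 48663 to 87381 in WT libraries. Stem and progenitor markers were higher for 8 of 8 measured in both settings, out of 16 listed, in a table that held mostly genes that differed. No measured gene of these lists was at 0 in a whole group, and the part of any of them in the 5 genes' differences was not tested.

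WT libraries also differed among themselves, along the same replicate numbers in air and in physioxia. In air replicates 1 and 2 had 4466 and 3100.2 normalized counts of Ngp, against 1655 and 954 in replicates 3 and 4. The same 2 libraries had higher sums of the granule list, 56585 and 50272 against 36853 and 35918, and of monocyte markers, 56300 and 50052 against 39913 and 33688. In WT physioxia replicates 1 and 2 had 5727 and 4642 of Ngp, against 2279 and 2320.0 in replicates 3 and 4. Their granule sums were 61345 and 82762.5 against 38247 and 35651, and their monocyte sums 49376 and 50638 against 37762 and 32085. In WT physioxia Lcn2 ran the other way, at 195 and 136 against 227 and 236. Camp and C5ar1 did not split by these numbers there. Without WT air replicates 1 and 2, the genotype difference in air was −2.12 log2 for Ngp (limma adjusted p = 0.000514) and −2.31 for Camp (0.00159). Camp in Tet2-deficient cells was past the threshold for physioxia minus air without Tet2-deficient air replicates 3 and 4 (1.82 log2, limma adjusted p = 0.0408), when 152 genes were called. Replicate 3 of that group had the highest erythroid sum of the 16 libraries, 396758.

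Across the 16 libraries, with the genotype difference included, the 5 genes followed each other. Pearson's r between pairs was 0.84 to 0.94 on the log2 scale. Within groups it ranged from −0.33 to 0.85 over 8 Tet2-deficient libraries and from 0.03 to 0.83 over 8 WT libraries. It was highest for Ngp with Lcn2 in Tet2-deficient cells and for Lcn2 with C5ar1 in WT cells. It was lowest for Camp with Il1r2 in Tet2-deficient cells and for Lcn2 with Il1r2 in WT cells. Likeness was ranked among tested genes without immunoglobulin and T cell receptor segments, symbols of Gm plus digits or ending in Rik, and unnamed or shared symbols. Among these, the genes most like the mean profile of the 5 were Fas (r = 0.980), Zfp125 (0.977), Tpm4 (0.977), Capn11 (0.972), Lrrc25 (0.971), Mefv (0.970), St8sia4 (0.969) and Spp1 (0.968). The nearest to Camp was Uap1 (0.946), to Ngp Ggh (0.965), to Lcn2 Tcn2 (0.969) and to C5ar1 Rsad2 (0.984). Ltf was the second nearest to Lcn2 (0.955). All these points share their libraries and the genotype difference, so the values are descriptions.

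Sequence around the starts of the 5 genes was compared because all 5 were lower in Tet2-deficient libraries. The RefSeq promoter table (GRCm38.p6) gave for each the 250 bases before the start it uses, which differs from the GENCODE gene start given above. The first 89 bases of the window lay before the GENCODE start for Camp, 189 for Ngp and 48 for C5ar1, and the windows of Lcn2 and Il1r2 lay wholly inside the GENCODE gene. The windows were searched on both strands for 5 motifs. The motif read by C/EBP factors was written TTGCNNAA. The core read by PU.1 and other Ets factors was GAGGAA. The E-box was CACGTG, and the TATA box was TATAAA. The last was the CCAAT box. No motif contains another. Shown are the windows of Ngp, Lcn2 and Il1r2, cut where the first GENCODE exon with an untranslated region begins, 5′ to 3′ on the gene's strand, with matches in capitals (ATTGG is CCAAT on the other strand).
Ngp, chr9:110419558-110419746, plus strand: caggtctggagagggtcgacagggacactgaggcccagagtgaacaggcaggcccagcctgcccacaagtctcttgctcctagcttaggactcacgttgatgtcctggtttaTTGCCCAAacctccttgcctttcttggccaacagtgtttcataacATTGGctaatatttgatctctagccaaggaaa
Lcn2, chr2:32387798-32387989, minus strand: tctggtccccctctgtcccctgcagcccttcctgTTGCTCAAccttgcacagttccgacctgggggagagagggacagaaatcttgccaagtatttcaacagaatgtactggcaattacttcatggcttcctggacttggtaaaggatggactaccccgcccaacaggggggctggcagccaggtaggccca
Il1r2, chr1:40085843-40085984, plus strand: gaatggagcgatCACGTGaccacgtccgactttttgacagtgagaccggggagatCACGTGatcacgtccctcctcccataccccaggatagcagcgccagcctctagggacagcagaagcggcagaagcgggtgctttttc

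In the full windows, TTGCNNAA was found 2 times for Ngp and 1 time for Lcn2, and it was present in 9.56% of 32851 mouse promoter windows. GAGGAA was found for Lcn2 (23.3% of windows), CACGTG 2 times for Il1r2 (6.02%), and CCAAT for Ngp and C5ar1 (33.8%). The second Ngp match of TTGCNNAA and the CCAAT of C5ar1 lay downstream of the GENCODE gene start, as did each match of Lcn2 and Il1r2. Camp held none of the 5 motifs, and TATAAA (12.4%) was in none of the 5 windows. Il1r2 differed from the others in CG dinucleotides, the sites at which DNA is methylated, with 14 in its window. Camp had 2, Ngp 3, Lcn2 3 and C5ar1 2, beside a median of 6 over all windows. All 5 genes were lower in Tet2-deficient cells, and a link between CG content and these differences was not tested. DNA methylation is not analysed here.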

How the data were processed

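RNA was sequenced from 16 samples of LSK-enriched marrow, 4 per group. The deposited table holds a signal that the authors made, gene counts divided by 1 size factor per library; whole reads were recovered within 0.01 for 100% of values. The submitters' processing notes name FastQC, cutadapt, STAR, HTSeq, DESeq2 and GRCm38; versions are not given in the sources used here. How the 6288 genes were chosen is not stated: 99.6% had an unadjusted p under 0.05 in at least 1 of 4 pairwise DESeq2 comparisons, so adjusted p-values over the table are lenient. Counts of list genes called among those measured may be raised for the same reason. GENCODE M21 gave symbols for 6278 identifiers and none for 10.

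Genes with at least 10 normalized counts in at least 4 libraries (6110; 178 left out) were fitted with limma 3.58.1 (trend, two-sided, a mean per group over all 16 libraries, pseudocount 1). Whole reads were also tested with edgeR 4.0.16 and DESeq2 1.42.0. Alternatives were pseudocounts of 10 and 0.5, no filter, a minimum of 50, quantile normalization, 2 groups only, a replicate block, genes outside the table counted as unchanged, and libraries left out. The block paired same numbers within each genotype for oxygen, and joined same numbers across genotypes for genotype and interaction. Intervals for ratios of summed reads are exact and two-sided at 95%, for counting error only.

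The labels call the replicates matched, and the extraction protocol describes cells divided between oxygen levels. Deviations of same-numbered WT libraries correlated between physioxia and air at 0.332, 0.178, 0.162 and 0.331, so WT numbers were taken as pairs. Those of Tet2-deficient libraries were 0.322, −0.275, 0.0423 and −0.00608, and numbers did not pair genotypes. The strongest match between Tet2-deficient libraries was physioxia replicate 2 with air replicate 3, at 0.500.

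The 5 genes and the 13 lists were chosen with earlier results of these data known. Named genes are the 5, up to 4 per list and comparison with the smallest p, the 8 most like the mean profile and 3 most like each gene, and 13 further genes wherever measured (8 were). The gene most like Il1r2 is not reported here. Sequences are from RefSeq.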

Additional observations from a re-analysis of the deposited data

How the results depend on the processing

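The 5 genotype differences kept their direction and stayed past the threshold in physioxia and in air under all 28 alternatives each (280 of 280 values). C5ar1 is among them and passed the main filter only through WT libraries, so this count is not offered as support. Some alternatives left out only libraries outside the comparison and so could not move the fitted difference. Of 415 oxygen and interaction values, 389 kept both direction and call and 26 did not. The replicate block changed no call of the 5 genes: 4203 genes were called for genotype in physioxia and 4822 in air, and 462 for oxygen in WT, against 352 without the block. For genotype it joined numbers that did not pair across genotypes, and for oxygen it paired Tet2-deficient numbers as well.

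Counting genes outside the table as unchanged left 2479 genes called for genotype in physioxia (4243 otherwise), 2436 in air (4858 otherwise) and 0 for oxygen in WT, with 0 of the 5 genes. Without WT air 1 and 2, 0 genes were called for oxygen in WT, with 0 of the 5, and Camp stood at 2.08 log2 (limma adjusted p = 0.128). The same-numbered WT physioxia libraries stayed in that fit, so its oxygen comparison was no longer matched. Without Tet2-deficient air 3 and 4, 2740 genes were called for genotype in air and 152 for oxygen in Tet2-deficient cells, 1 of the 5 among them. Tet2-deficient physioxia replicate 2, the physioxia library most like air 3, stayed in that fit. DESeq2 called 550 genes for oxygen in WT, 8 in Tet2-deficient cells and 11 for the interaction, and a pseudocount of 10 called 1 in Tet2-deficient cells. With single libraries left out, oxygen calls ranged from 126 to 554 in WT (0 to 1 of the 5 genes) and from 0 to 1 in Tet2-deficient cells, and interaction calls from 0 to 1. The causes were not tested.

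Among the 5 genes and the alternatives run, the differences that changed sign were uncalled oxygen and interaction values. For oxygen in WT, C5ar1 was −0.049 after quantile normalization, −0.014 by edgeR and −0.037 by DESeq2, and −0.069 to 0.37 with single libraries left out. For oxygen in Tet2-deficient cells the ranges with single libraries left out were −0.36 to 0.16 for Il1r2 and −0.0019 to 0.32 for Lcn2, and C5ar1 was 0.24 without air 3 and 4. The interaction of Ngp ranged from −0.21 to 0.53 with single libraries left out and was −0.65 without WT air 1 and 2. Without Tet2-deficient air 3 and 4 it was 0.24 for Camp and 0.15 for C5ar1. Quantile normalization shifted the median of all genes in air to 0.12, against 0.24.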
